A study of Mus musculus with 50 samples.

Results

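Non-regenerative (NR) digits sampled 6 hours (6 h) after amputation were compared with NR digits collected at the time of amputation (0 h). The comparison covers 6 of the 50 samples of the series, 3 digits at each time, chosen by group and time in the sample labels. The whole series used here holds 41 digits, of which 29 were NR and 12 were of intermediate amputation level, and 9 macrophage libraries. The digits came from male C57Bl/6 mice without a transgene or drug treatment, aged 9 to 10 weeks, and the cut went through the distal phalanx (P3) of hindlimb digit 3. Each library was made from 1 left digit with the skin wound not closed, and the labels describe the tissue as mixed cells near the wound. The labelled share of P3 removed was 62%, 62% and 75% in the 0 h digits and 60%, 74% and 76% in the 6 h digits. The guideline for an NR digit was removal of more than 67%, so that 3 of these 6 labels lie under it. Replicates are numbered by sample order only, since the labels carry no replicate numbers.

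The P3 amputation cuts skin, nail tissue, bone, marrow, vessels and nerves together. In the hours after such a cut the clot forms, resident cells and keratinocytes release cytokines and chemokines, and neutrophils are the earliest leukocytes to arrive. Keratinocytes at the wound edge switch from their resting programme to stress keratins, antimicrobial proteins and adhesion molecules before they migrate under the scab. Epidermal growth factor receptor (EGFR) ligands and activator protein 1 (AP-1) transcription factors are known parts of that switch.

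RNA abundance was measured by poly(A)-selected sequencing, and expected counts per gene summed to between 4747702 and 10918597 per digit. Normalized counts below are expected counts scaled to the mean effective library size of the 6 digits, and levels at other times are given in normalized TPM, which corrects for transcript length. The 0 h digits were not alike. Replicate 1 carries a July date and replicates 2 and 3 share a November date, and Spearman's correlation over genes was 0.931 for each pair with replicate 1 and 0.985 between replicates 2 and 3. Among the 6 h digits, replicates 1 and 2 carry July dates and replicate 3 a November date, and the pairs correlated at 0.945 to 0.963. What the dates stand for (surgery, collection or another step) is not stated. The tissue label matched its markers: the 12 basal keratinocyte markers summed to 8693 to 9635 normalized TPM at 0 h and 10994 to 11568 at 6 h, and Krt14, the keratin of basal cells, was at 4960.5, 5623 and 5431 and 6339, 6256 and 6863 normalized TPM. Other lists were less even across the digits. The nail and hair hard keratins summed to 5667, 281 and 1090 normalized TPM at 0 h and 3598, 850 and 1445 at 6 h. The suprabasal keratinocyte markers summed to 48897, 112021 and 105027 at 0 h and 61554, 91954 and 105277 at 6 h. Whether this spread bears on the changes below was not tested. RNA of the bone and cartilage marker lists was found in all digits. The osteoblast list summed to 232 to 449.9 normalized TPM at 0 h and 45.7 to 713 at 6 h. Its sum spread over more than 10-fold among the 6 h digits. The list includes Col1a1, a collagen not limited to bone, while Sp7, Sost, Ifitm5 and Bglap2 had too few counts to be tested. The sums thus do not show that bone was sampled in every digit.

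Of 21954 genes, 13168 had enough counts to be tested, and 638 of these (4.85%) were called, which means a Benjamini-Hochberg adjusted p under 0.05 in edgeR's quasi-likelihood test and a change of more than 2-fold. At 6 h, 425 of them (3.23% of the tested genes) had risen and 213 (1.62%) had fallen. The median log2 fold change was 1.61 among genes called higher, -1.44 among genes called lower and -0.03 over all tested genes. More than 8-fold changes were found for 69 genes that rose and 18 that fell. In all 638 genes the 3 values of one time lay apart from the 3 of the other, which was so for 17.9% of all tested genes in the upward and 15.6% in the downward direction. When July digits and November digits were compared separately, 331 of the rises and 155 of the falls were over 2-fold in both, where the direction was already fixed by groups that do not overlap. The number of calls depended on single digits. It was 442 higher and 163 lower without 0 h replicate 1, but 114 and 16 without 0 h replicate 2, and 95 and 13 without 0 h replicate 3. Leaving out 6 h replicates 1, 2 and 3 in turn gave 267 and 100, 173 and 25, and 348 and 118. Of the called genes named below or in the closing observations, 107 were followed through these fits. Il24, Il19 and some others, such as Procr and Cd79b, were not among the 107. Of the 107, 35 stayed called in all 6 fits with 1 digit left out, and 69 were no longer called without 0 h replicate 3. All 107 kept their direction in these fits, which was nearly fixed in advance because the groups of called genes do not overlap. Upper-quartile scaling split the calls more evenly, 330 higher and 317 lower, and moved the median of all tested genes to -0.15. Whether digits share an animal's cage, operator or day beyond these dates is not given, so that the p-values measure the spread between these 6 digits.

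**Figure D1:**
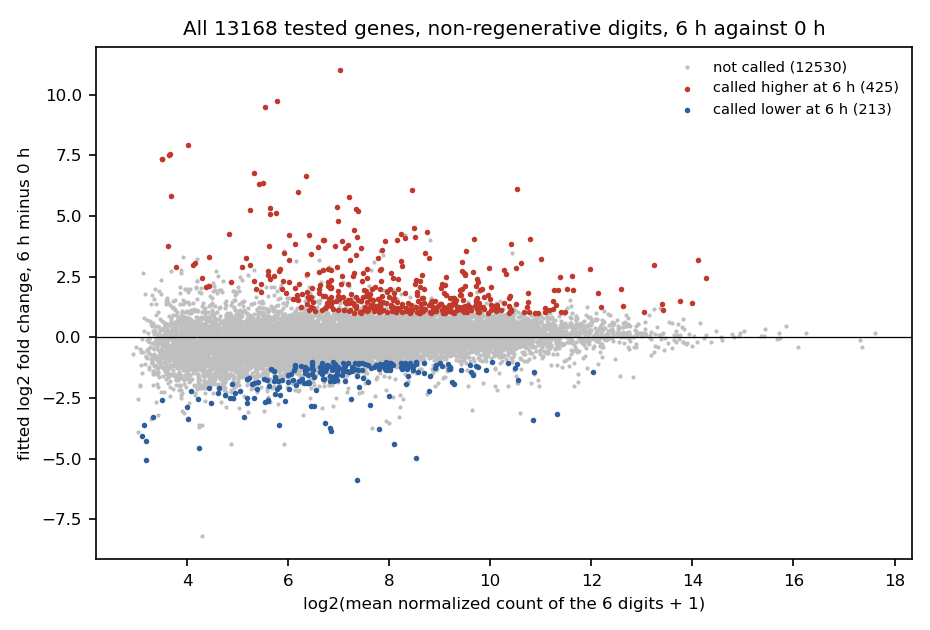
Fitted log2 fold change (6 h minus 0 h) against the mean level of the 6 digits, as log2 of the normalized count plus 1, for 13168 tested genes, with 1 point per gene. The 425 genes called higher (red) reach far larger changes than most of the 213 called lower (blue), and the unlabelled bulk of genes (grey) is centred near 0.

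The largest rises were those of cytokines, chemokines, proteases and cornified envelope genes. Il24, a cytokine of the IL-20 group that acts on epithelium, had no count in any 0 h digit and normalized counts of 370.2, 214 and 191 at 6 h. Against a floor of 3 counts this is at least 62.6-fold higher. Il19, of the same cytokine group, was also at 0 in every 0 h digit and stood at 184, 74.8 and 66.3 at 6 h, at least 26.3-fold higher. Both genes lie in the same stretch of chromosome 1 (GRCm38), Il24 at chr1:130882074-130887454 and Il19 at chr1:130932656-130940115, and all 6 h digits were above all 0 h digits. A receptor subunit that these cytokines use moved the other way: Il20rb had normalized counts of 622, 679.8 and 511 at 0 h and 173, 247 and 223 at 6 h (log2 fold change -1.49 ± 0.20, adjusted p = 0.00773; ± is the standard error throughout). Il6, the acute-phase cytokine, had 26.2, 11.01 and 6.5 at 0 h and 619.8, 119 and 159 at 6 h (log2 fold change 4.44 ± 0.79, adjusted p = 0.0213). The 6 h replicate 1 was the highest digit for Il24, Il19 and Il6.

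Receptors for type 2 cytokines rose evenly across the digits. Il4ra, the shared receptor chain for IL-4 and IL-13, went from 211, 189 and 214 to 1279, 1231 and 1207 (log2 fold change 2.60 ± 0.15, adjusted p = 0.000595), a change with very little spread in either group. Il13ra1, its partner in the IL-13 receptor, went from 819, 747 and 721 to 2749, 3094 and 2164 (log2 fold change 1.81 ± 0.20, adjusted p = 0.00414). In the list of IL-6, IL-20 and other cytokines with their receptors, 9 of the 19 tested were called higher and 1 was called lower, with a median log2 fold change of 1.81 against -0.03 over all tested genes. Il24 and Il19, without a count at 0 h, passed the count filter only through the 6 h digits, so that this share and median lean upward. The remaining genes called higher, named here to complete the count, were Clcf1, Il17ra, Osmr (the oncostatin M receptor) and Tnfrsf12a (the TWEAK receptor), with log2 fold changes of 2.83, 1.28, 2.33 and 1.70. With 1 digit left out, between 4 and 11 of the list were called higher, the fewest without 0 h replicate 2 or 3.

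In the IL-1 family, 5 of 17 tested genes were called higher and none lower (median log2 fold change 0.89). Il1b, the inflammasome-processed cytokine, had 78.5, 7.34 and 20.3 at 0 h and 718, 554 and 316 at 6 h (log2 fold change 3.99 ± 0.75, adjusted p = 0.0253). Il1a, an alarm cytokine stored in keratinocytes, went from 52.3, 41.1 and 82.9 to 238, 181 and 162 (log2 fold change 1.71 ± 0.32, adjusted p = 0.0242). Il1rl1, the receptor for IL-33, went from 31.7, 10.3 and 17.1 to 322, 283 and 201 (log2 fold change 3.82 ± 0.42, adjusted p = 0.00433). Its 6 h digits lay far above its 0 h digits, whereas 0 h replicate 1 alone raised the 0 h range of Il1b. Il1f9 (IL-36 gamma), a keratinocyte cytokine, had 140.5, 314 and 299.97 and 633, 844 and 645 (log2 fold change 1.48 ± 0.30, adjusted p = 0.0317). Il1r2, a decoy receptor that binds IL-1 without signalling, had 110.2, 89.6 and 100.80 and 353, 247 and 220.1 (log2 fold change 1.45 ± 0.24, adjusted p = 0.0183). Both an IL-1 ligand pair and a receptor that limits it were thus higher at 6 h. The number called with 1 digit left out ran from 1 to 6, the fewest without 0 h replicate 2 or without 6 h replicate 2.

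Among CXC and CC chemokines, 6 of 16 tested genes were called higher and 1 was called lower (median log2 fold change 1.110). Cxcl3, without a count at 0 h, and Ccl20 and Ccl2, with at most 4, passed the count filter only through the 6 h digits. The share and median thus lean upward and do not describe the listed chemokines that were not tested. Ccl20, which draws cells bearing Ccr6, had 0, 2.94 and 0.813 at 0 h and 143, 199.95 and 140.5 at 6 h (log2 fold change 6.66 ± 0.57, adjusted p = 0.00178). The monocyte attractants Ccl2 and Ccl7 followed. Ccl2 went from 2.75, 2.94 and 0.813 to 247, 129 and 53.9 (log2 fold change 5.99 ± 0.75, adjusted p = 0.0064), and Ccl7 from 39.9, 7.34 and 9.76 to 384, 266 and 277 (log2 fold change 4.13 ± 0.59, adjusted p = 0.0105). Among the neutrophil attractants, Cxcl1 had 379, 97.6 and 59.3 and 3366, 1774 and 2532 (log2 fold change 3.86 ± 0.68, adjusted p = 0.0213). Cxcl5 had 5.51, 0.734 and 1.63 and 193, 47.5 and 43.7 (log2 fold change 5.32 ± 0.91, adjusted p = 0.0195). For both, 0 h replicate 1 held the highest of the 0 h values. Cxcl2, of the same group, had 109, 9.54 and 9.76 and 479, 406 and 383 and was not called (log2 fold change 3.41 ± 0.86, adjusted p = 0.055). The gene called lower was Ppbp, a chemokine of platelets, which is described with the blood genes. Between 2 and 8 chemokines were called higher with 1 digit left out, the fewest without 0 h replicate 3.

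**Figure D2:**
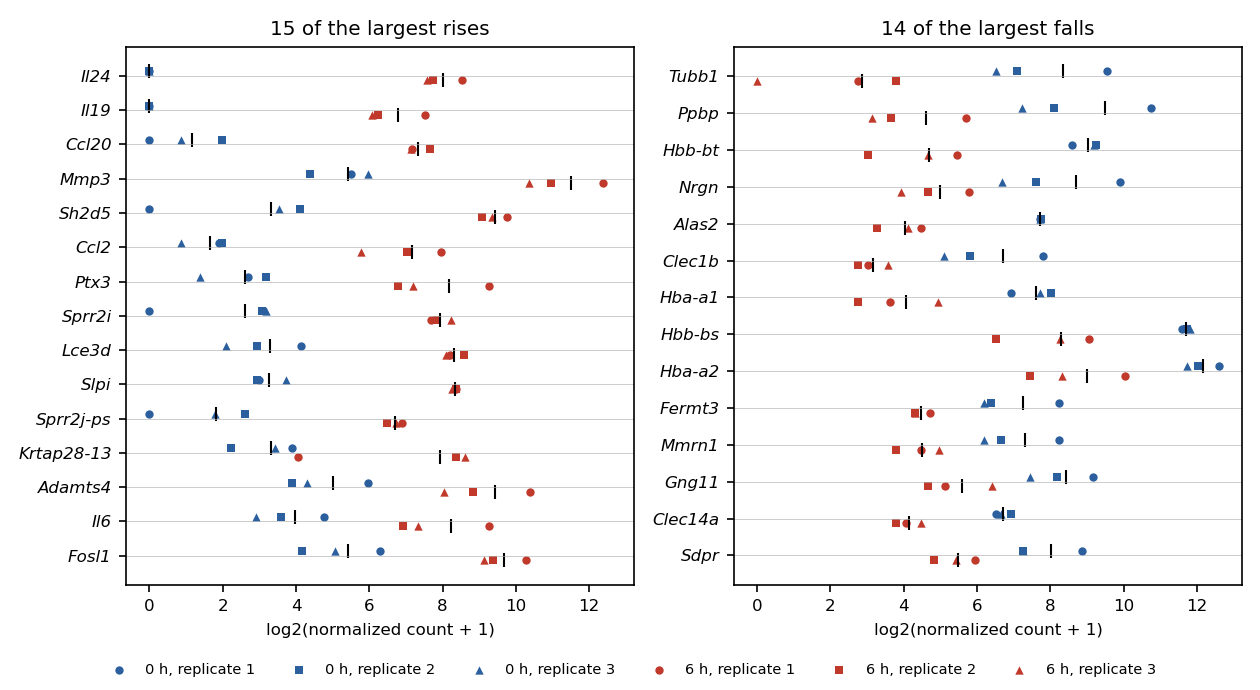
Normalized counts of the 6 digits, as log2(count + 1), for 15 genes with the largest called rises (left) and 14 with the largest called falls (right), with blue 0 h points, red 6 h points, symbols for the replicates and a black tick at the log2 of the mean count plus 1. Il24 and Il19 sit at 0 in all 0 h digits, 6 h replicate 1 of Krtap28-13 lies close to its 0 h digits, and for Tubb1, Ppbp, Nrgn and Clec1b 0 h replicate 1 lies to the right of the other 0 h digits.

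Genes of the signalling steps below these receptors changed in part. Bcl3, an atypical inhibitor-of-kappaB protein that works with NF-kB p50 and p52, went from 33.0, 22.8 and 30.9 to 366, 506 and 484 (log2 fold change 3.98 ± 0.25, adjusted p = 0.000595). Nfkb2, the p52 precursor, went from 118, 47.7 and 70.7 to 333, 227 and 177 (log2 fold change 1.65 ± 0.38, adjusted p = 0.0439). In the NF-kB list 3 of 15 tested genes were called higher, Bcl3, Nfkb2 and the RNase gene Zc3h12a (log2 fold change 1.26), and none lower (median 0.89). That number was between 1 and 6 with 1 digit left out, and it was 1 without 0 h replicate 2 or 3 and without 6 h replicate 1 or 2. Stat3, the transcription factor of IL-6-type receptors, had 1118, 794 and 876 and 2580.0, 2889 and 2067 (log2 fold change 1.43 ± 0.21, adjusted p = 0.0123). Its feedback inhibitor Socs3 had 412, 139 and 78.9 and 1549, 1098 and 1082 (log2 fold change 2.58 ± 0.55, adjusted p = 0.0355). These were the 2 genes called among 15 tested in the JAK-STAT list (median 0.40). Nod2, an intracellular sensor of bacterial cell wall, rose from 59.2, 60.2 and 55.3 to 299, 337 and 318 (log2 fold change 2.45 ± 0.19, adjusted p = 0.00142), and Myd88, the adaptor of Toll-like and IL-1 receptors, from 251, 184 and 168 to 604, 545 and 527 (log2 fold change 1.48 ± 0.20, adjusted p = 0.00771). They were the 2 called of 10 tested innate sensor genes (median 0.34). No JAK-STAT gene was called without 0 h replicate 2 or 3, and 1 sensor gene was.

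Interferon-stimulated genes gave no calls among 18 tested genes, although 16 of the 18 had positive log2 fold changes and their median was 0.77. Irf9, a subunit of the interferon-activated factor, had 95.0, 137 and 204 at 0 h and 221, 279 and 286 at 6 h (log2 fold change 0.84 ± 0.29, adjusted p = 0.121). The summed level of the whole list ranged from 64.5 to 109.7 normalized TPM at 0 h and from 83.8 to 244 at 6 h, so the groups overlapped.

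Immediate early genes were not uniformly high at 6 h. Of 30 tested, 6 were called higher and 1 lower (median 0.37). Fosl1, an AP-1 subunit that appears later than Fos after a stimulus, had 77.1, 16.9 and 32.5 at 0 h and 1233, 662 and 563 at 6 h (log2 fold change 4.34 ± 0.57, adjusted p = 0.00712). Myc, a growth regulator, had 492, 365 and 405 and 1037, 929 and 1015 (log2 fold change 1.24 ± 0.17, adjusted p = 0.00767). Ier3, a stress-induced survival gene, had 197, 137 and 122 and 389, 512 and 354 (log2 fold change 1.47 ± 0.25, adjusted p = 0.0192). The AP-1 subunit Jun was lower, with 3827, 2376 and 1941 and 905, 850.2 and 1238 (log2 fold change -1.44 ± 0.29, adjusted p = 0.0307). Fos and Fosb had values in the same direction as Jun without being called. Fos had 11709, 2636 and 1124 at 0 h and 1624, 1128 and 1076 at 6 h (log2 fold change -2.01 ± 0.75, adjusted p = 0.143), and Fosb 6456, 1178 and 656 and 530.5, 174 and 237 (log2 fold change -3.14 ± 0.87, adjusted p = 0.07138). The 0 h value of both genes came mostly from replicate 1, and whether handling time or date bears on it was not tested. With 1 digit left out, from 0 to 8 of the list were called higher, and none was called without 0 h replicate 3.

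In the list of EGFR ligands and receptors 5 of 13 tested genes were called higher and none lower (median 0.94). Areg (amphiregulin) went from 23.4, 32.3 and 32.5 to 519, 472 and 721 (log2 fold change 4.26 ± 0.26, adjusted p = 0.000595). Epgn (epigen) went from 169, 139 and 125 to 1180.1, 1588 and 972 (log2 fold change 3.11 ± 0.24, adjusted p = 0.00142). Tgfa went from 99.1, 76.4 and 99.2 to 583, 542 and 331 (log2 fold change 2.41 ± 0.27, adjusted p = 0.00454). Hbegf, the heparin-binding ligand, had 437, 114 and 106 at 0 h and 1688, 1085 and 1385 at 6 h (log2 fold change 2.68 ± 0.55, adjusted p = 0.0316). The receptor Egfr itself changed less, from 879.9, 559 and 515 to 1557, 1223 and 1177 (log2 fold change 1.02 ± 0.24, adjusted p = 0.0476). The groups were apart for all 5, and for Hbegf 0 h replicate 1 was well above the other 0 h digits. With 1 digit left out 3 to 6 genes of the list were called, and 3 in all fits except that without 0 h replicate 1.

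Wound keratins and alarmins formed the list with the highest median, 2.71, and 8 of its 12 tested genes were called higher and none lower. S100a8, near 0 at 0 h, was tested through its 6 h values, and Defb4 and Defb14 had too few counts to be tested. The share and the median thus lean upward. Krt16, a keratin of stressed and fast-dividing epidermis, had 2648, 4285 and 3591 at 0 h and 33047, 32442 and 30721 at 6 h (log2 fold change 3.19 ± 0.27, adjusted p = 0.00162). Krt6a, the type II partner, had 6330.2, 6858 and 5311 and 36431, 36198 and 27809.6 (log2 fold change 2.44 ± 0.25, adjusted p = 0.00318). Krt17, another wound-edge keratin, had 1617, 767 and 1154 and 4751, 5207 and 4153 (log2 fold change 1.997 ± 0.29, adjusted p = 0.0111). These genes were already expressed at 0 h and rose together in every digit, while Krt14 of the resting basal layer was not called (log2 fold change 0.33 ± 0.23, adjusted p = 0.407). Slpi, a secreted inhibitor of neutrophil proteases, had 6.89, 6.61 and 12.2 and 328, 329 and 307 (log2 fold change 5.19 ± 0.30, adjusted p = 0.000595), which made it a gene with nearly no expression at 0 h. The calprotectin subunits S100a8 and S100a9, antimicrobial proteins made by neutrophils and by stressed keratinocytes, were both called. S100a8 had 2.75, 0.734 and 0 and 99.3, 117 and 46.8 (log2 fold change 6.36 ± 0.79, adjusted p = 0.0063), and S100a9 22.0, 29.4 and 31.7 and 304, 214 and 364 (log2 fold change 3.39 ± 0.29, adjusted p = 0.00174). The list's summed level was 2133 to 2697 normalized TPM at 0 h and 11390.0 to 12772 at 6 h. Between 5 and 10 members were called with 1 digit left out, the fewest without 0 h replicate 3.

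Cornified envelope precursors of the small proline-rich (Sprr) and late cornified envelope (Lce) families included several of the largest rises. Of 28 tested, 10 were called higher and none lower, and the median was 1.21. Sprr1a had 226, 419.9 and 345 at 0 h and 2815, 2437 and 3085 at 6 h (log2 fold change 3.07 ± 0.26, adjusted p = 0.00178). Sprr2h had 62.0, 70.5 and 48.8 and 616, 555 and 442 (log2 fold change 3.15 ± 0.23, adjusted p = 0.00138). Lce3d, of the Lce3 group linked to barrier repair, had 16.5, 6.61 and 3.25 and 292, 384 and 270.0 (log2 fold change 5.28 ± 0.49, adjusted p = 0.00227). Every 6 h digit exceeded every 0 h digit for these genes. Sprr2i had 0, 7.34 and 8.13 and 204, 229 and 297 (log2 fold change 5.38 ± 0.58, adjusted p = 0.00414). Members of the Sprr2 cluster are near copies, and the expected counts share reads between them, so that the split among Sprr2h, Sprr2i and the pseudogene Sprr2j-ps is uncertain. By contrast the 15 tested suprabasal differentiation markers gave no call (median 0.17). From 6 to 11 Sprr and Lce genes were called higher with 1 digit left out, the fewest without 0 h replicate 3, and none was called by limma on normalized TPM without a filter.

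Genes of keratinocyte adhesion and migration gave 13 calls among 25 tested, all higher (median 1.28). Plet1, a surface protein of hair follicle keratinocytes, had 292, 105 and 216 at 0 h and 4051, 3130.2 and 2829.9 at 6 h (log2 fold change 4.04 ± 0.39, adjusted p = 0.0028). The adhesion protein Flrt3 had 140.5, 158 and 148 and 685, 725 and 483 (log2 fold change 2.08 ± 0.20, adjusted p = 0.0028). The receptor kinase gene Epha2 had 321, 351 and 262 and 1177, 954 and 993 (log2 fold change 1.74 ± 0.18, adjusted p = 0.00318). Cdh3 (P-cadherin) had 255, 165 and 181 and 837, 1151 and 689 (log2 fold change 2.16 ± 0.25, adjusted p = 0.00527). The lowest 6 h digit was above the highest 0 h digit in each of them. Of the basal keratinocyte markers, 3 of 12 were called higher, among them the integrin genes Itga3 and Itga6 (log2 fold changes 1.75 and 1.24), which are also in the migration list. Krt5, the basal partner of Krt14, was not called (log2 fold change -0.21 ± 0.22, adjusted p = 0.586), and neither was Trp63, the basal cell master regulator (log2 fold change 0.51 ± 0.18, adjusted p = 0.13). With 1 digit left out, 5 to 15 migration genes were called, the fewest without 0 h replicate 2.

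**Figure D3:**
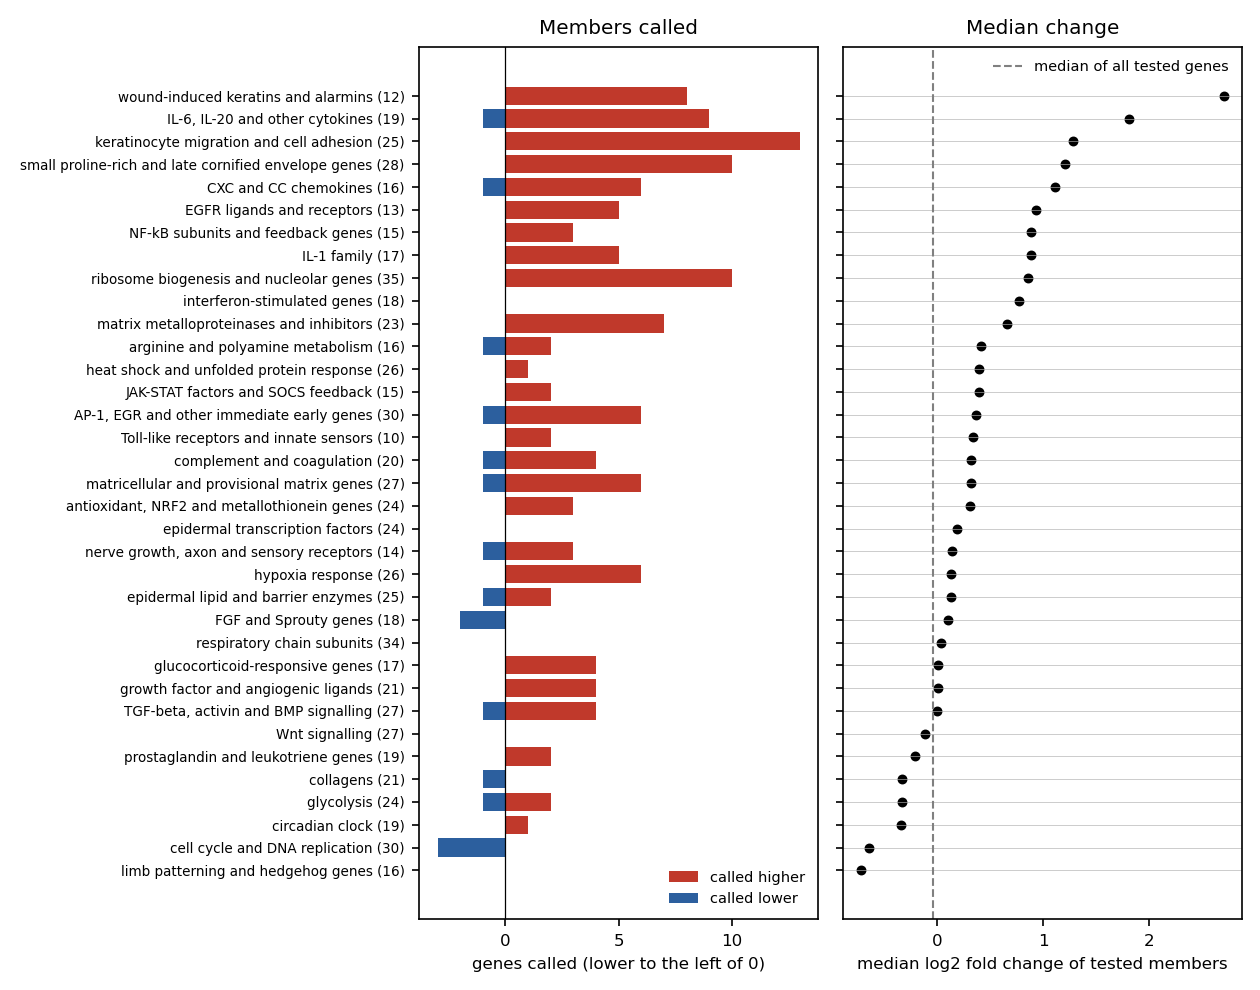
For 35 functional gene lists, with the number of tested members in brackets, the number called higher or lower at 6 h (left) and the median log2 fold change of the tested members (right, dashed line at the median of all tested genes). Wound keratins and alarmins have the highest median, 2.71, the migration list has 13 calls, and limb patterning genes have the lowest median, -0.71, without a call. Medians lean towards members high at 1 time, since members with too few counts are left out.

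Proteases and their inhibitors rose selectively. In the metalloproteinase list 7 of the 23 tested were called higher and none lower (median 0.66). Mmp10, near 0 at 0 h, was tested through its 6 h values, so that this share and median lean upward. Mmp3 (stromelysin 1) had 44.1, 19.8 and 61.0 at 0 h and 5367, 1988 and 1324 at 6 h (log2 fold change 6.12 ± 0.69, adjusted p = 0.00455). Mmp10 (stromelysin 2) was nearly absent at 0 h, with 0, 0 and 2.44, and had 99.3, 93.5 and 56.2 at 6 h (log2 fold change 6.34 ± 0.81, adjusted p = 0.00671). Adam8, a membrane protease of leukocytes, had 22.0, 32.3 and 49.6 and 511, 470.4 and 293 (log2 fold change 3.59 ± 0.36, adjusted p = 0.00308). Adamts4, an aggrecan-cleaving enzyme, had 62.0, 13.9 and 18.7 and 1340.3, 457 and 262 (log2 fold change 4.52 ± 0.79, adjusted p = 0.0202). The gelatinase Mmp9 and the collagenase Mmp13 were not called. Mmp9 had 121, 34.5 and 30.1 and 403, 96.4 and 55.4 (log2 fold change 1.60 ± 0.82, adjusted p = 0.262), and Mmp13 71.6, 7.34 and 30.1 and 1128, 66.2 and 51.5 (log2 fold change 3.58 ± 1.31, adjusted p = 0.137), with the high value in 6 h replicate 1 in both. Between 3 and 8 of the list were called with 1 digit left out, the fewest without 0 h replicate 2 or 3 or 6 h replicate 2.

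Genes of the urokinase system for breaking down fibrin were higher at 6 h. Plaur, the urokinase receptor, went from 41.3, 24.2 and 40.6 to 921, 512 and 361 (log2 fold change 4.09 ± 0.41, adjusted p = 0.00318). Plau, urokinase itself, went from 372, 245 and 302 to 1449.5, 768 and 616 (log2 fold change 1.63 ± 0.33, adjusted p = 0.0314). With Procr, the endothelial protein C receptor gene, these were among the 4 genes called higher of 20 tested in the complement and coagulation list (median 0.33). F13a1, the clot-stabilizing transglutaminase of platelets and macrophages, was the 1 called lower, with 534, 401 and 402 and 189, 139.5 and 223 (log2 fold change -1.27 ± 0.23, adjusted p = 0.0226). The number higher was 1 to 4 with 1 digit left out, and 1 without 0 h replicate 2 or 3 or 6 h replicate 2.

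Prostaglandin synthesis was represented by its inducible enzymes. Ptgs2 (cyclooxygenase 2) had 219, 47.0 and 22.8 at 0 h and 2699, 1070.2 and 865 at 6 h (log2 fold change 4.05 ± 0.85, adjusted p = 0.034). Ptges, the prostaglandin E synthase, had 238, 132 and 173 and 1389, 1285 and 963 (log2 fold change 2.75 ± 0.26, adjusted p = 0.00255). No other gene among the 19 tested of this list was called (median -0.20), and 1 was called in each fit with a digit left out, apart from that without 0 h replicate 1.

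Several genes of the provisional wound matrix were called higher. Ptx3, a pattern-recognition protein of the early wound matrix, had 5.51, 8.08 and 1.63 at 0 h and 611, 109 and 145 at 6 h (log2 fold change 5.79 ± 0.87, adjusted p = 0.0127). The hyaluronan synthase genes Has2 and Has3 were both called. Has2 had 67.5, 58.7 and 48.8 and 533, 430.1 and 218 (log2 fold change 2.76 ± 0.35, adjusted p = 0.00674), and Has3 97.8, 50.7 and 64.2 and 655, 662 and 304 (log2 fold change 2.94 ± 0.38, adjusted p = 0.00701). Tnfaip6, which links hyaluronan to other matrix proteins, had 26.2, 9.54 and 4.06 and 102, 87.7 and 154 (log2 fold change 3.20 ± 0.61, adjusted p = 0.0256). In this list 6 of the 27 tested were called higher and 1 was called lower (median 0.32). The gene called lower was Eln (elastin), with 2801, 2147 and 1953 and 705, 709 and 632 (log2 fold change -1.75 ± 0.20, adjusted p = 0.00455), and its groups were far apart. Of 21 collagen genes 1 was called, Col5a3, which was lower (log2 fold change -1.24, list median -0.33). This share was near the 4.85% called over all tested genes, and Col5a3 was not called with any 1 digit left out. Col3a1, a major collagen of skin, had 13765, 9073 and 11913 and 11596, 3693 and 5875 (log2 fold change -0.72 ± 0.41, adjusted p = 0.314), with overlapping groups. From 0 to 7 of the provisional matrix list were called higher with 1 digit left out, none without 0 h replicate 3.

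Growth factor genes changed in a few members. In the TGF-beta, activin and BMP list 4 of 27 tested were called higher and 1 lower (median 0.00). Inhba, the activin A subunit, had 28.9, 72.7 and 87.8 at 0 h and 243, 191 and 183 at 6 h (log2 fold change 1.68 ± 0.38, adjusted p = 0.0422), and Fst (follistatin), which binds activin, 380.1, 184 and 250.4 and 1908, 646 and 947 (log2 fold change 2.110 ± 0.43, adjusted p = 0.0315). Smad3, a signal transducer of TGF-beta and activin, had 190.0, 129.9 and 159 and 901, 420.0 and 431 (log2 fold change 1.87 ± 0.33, adjusted p = 0.0213). Ligand, antagonist and transducer were thus higher together, while Tgfb3 was lower (log2 fold change -1.19 ± 0.27, adjusted p = 0.0402). Bmp2, a bone-inducing ligand, had 100.52, 100.58 and 102 and 357, 128 and 176 and was not called (log2 fold change 1.125 ± 0.37, adjusted p = 0.106). No TGF-beta list gene was called higher without 0 h replicate 2 or 3. Growth factors of other families also rose. Artn (artemin), a ligand for sensory neurons, had 0, 1.47 and 5.69 and 51.1, 56.1 and 51.5 (log2 fold change 4.27 ± 0.75, adjusted p = 0.0206). Nrg1 (neuregulin 1) had 31.7, 36.7 and 10.6 and 245, 148 and 111 (log2 fold change 2.67 ± 0.50, adjusted p = 0.0253). Ntn4, a basement membrane netrin, was lower, with 349.8, 322 and 432 and 121, 145 and 172 (log2 fold change -1.33 ± 0.22, adjusted p = 0.0168).

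Developmental signalling gave few calls. None of 27 tested Wnt genes and none of 16 tested limb patterning and hedgehog genes was called, with medians of -0.11 and -0.71. In the limb patterning list 1 of 16 genes had a positive log2 fold change. Prrx1, a limb mesenchyme factor, had 558, 548 and 496 at 0 h and 413, 175 and 247 at 6 h (log2 fold change -0.94 ± 0.29, adjusted p = 0.0942), and Dlx5, a bone and nail mesenchyme factor, 259, 382 and 311 and 182, 201 and 207 (log2 fold change -0.69 ± 0.20, adjusted p = 0.0817). In both genes the groups were apart although neither was called, and 15.6% of all tested genes had groups apart in the downward direction. Of 18 FGF and Sprouty genes, the FGF target Etv5 and the inhibitor Spred2 were called lower (log2 fold changes -1.20 and -1.14, list median 0.10), and neither was called with any 1 digit left out.

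Few metabolic genes were called. Hk2 (hexokinase 2), which traps glucose in the cell, had 676, 607 and 675 at 0 h and 1999.9, 1926 and 2018 at 6 h (log2 fold change 1.60 ± 0.16, adjusted p = 0.0028). Slc16a1, a lactate transporter, had 595, 615 and 580.4 and 1454, 1391 and 1605 (log2 fold change 1.31 ± 0.15, adjusted p = 0.00476). Pfkm, the muscle phosphofructokinase, was lower (log2 fold change -1.07 ± 0.24, adjusted p = 0.0417). These 3 were the only calls among 24 tested glycolysis genes (median -0.33). Of 26 hypoxia response genes, 6 were called higher and none lower (median 0.13), among them Ndrg1 with 603, 686 and 571 and 1804, 1358 and 1434 (log2 fold change 1.30 ± 0.18, adjusted p = 0.00888) and Angptl4, a lipase inhibitor, with 15.1, 3.67 and 11.4 and 187, 92.1 and 45.3 (log2 fold change 3.46 ± 0.68, adjusted p = 0.0282). Leaving out 1 digit gave 1 to 6 calls in that list, the fewest without 0 h replicate 3. None of 34 respiratory chain genes was called (median 0.04). Odc1, the rate-limiting enzyme of polyamine synthesis, rose from 1041, 1169 and 980.4 to 3589.8, 4843 and 3891 (log2 fold change 1.95 ± 0.20, adjusted p = 0.00318). Hmox1, the haem-degrading enzyme, rose from 140.5, 151 and 202 to 794, 573 and 602 (log2 fold change 1.99 ± 0.22, adjusted p = 0.00421).

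Ribosome biogenesis genes moved upward with small steps. All 35 had positive log2 fold changes, 10 were called higher, and the median was 0.86 against -0.03 over all tested genes. Their summed level was 4042, 7288 and 7926 normalized TPM at 0 h and 7519, 6705 and 10981 at 6 h, so the summed groups overlapped. Nop2, an rRNA methyltransferase, had 269, 343 and 349.6 at 0 h and 859.5, 752 and 701 at 6 h (log2 fold change 1.26 ± 0.17, adjusted p = 0.00832). Nip7, a factor of the large subunit, had 260.3, 261 and 249 and 625, 524 and 583 (log2 fold change 1.17 ± 0.15, adjusted p = 0.00701). Polr1b, a subunit of RNA polymerase I, had 201, 183 and 157 and 499, 557 and 380.1 (log2 fold change 1.41 ± 0.21, adjusted p = 0.0115). The groups did not overlap for Nop2, Nip7 or Polr1b. No gene of the list was called higher without 0 h replicate 2 or without 0 h replicate 3, and at most 6 were with any other digit left out.

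Cell cycle genes tended the other way. Of 30 tested, 3 were called lower, none higher, and 3 of the 27 that were not called had a positive log2 fold change (median -0.64). Mki67, a proliferation marker, had 1786, 2289.8 and 2005 at 0 h and 628, 777 and 1104 at 6 h (log2 fold change -1.28 ± 0.24, adjusted p = 0.0252), Plk1, a mitotic kinase, 150.1, 188 and 163 and 49.6, 67.6 and 75.7 (log2 fold change -1.37 ± 0.25, adjusted p = 0.0231). Ccnb2 (cyclin B2) had a log2 fold change of -1.15. At most 2 of these were called with 1 digit left out, and none without 0 h replicate 2 or 3 or 6 h replicate 1 or 2. Among enzymes of epidermal lipids, Scd2, a fatty acid desaturase, fell from 5695, 6868 and 5677 to 1825, 1905 and 3120.2 (log2 fold change -1.41 ± 0.26, adjusted p = 0.0233).

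Haemoglobin genes were 4 of the 15 largest falls among genes with a mean normalized count of at least 100. In mixed tissue, fewer cells of a type and less RNA per cell cannot be told apart, here and in all marker lists. Of 7 red blood cell genes 6 were called lower (median -3.55), and the summed level of the 7 was 3183 to 4324 normalized TPM at 0 h and 120.1 to 706 at 6 h. Hbb-bs, an adult beta globin, had 3063, 3403 and 3597 at 0 h and 536, 90.6 and 306 at 6 h (log2 fold change -3.43 ± 0.56, adjusted p = 0.0168). Alas2, the enzyme that starts haem synthesis in red cell precursors, had 209, 214 and 208 and 21.3, 8.63 and 16.4 (log2 fold change -3.75 ± 0.33, adjusted p = 0.00183). The 0 h digits were close to each other for these genes, and 6 h replicate 2 was lowest. Reads of Hbb-bs and Hbb-bt, and of Hba-a1 and Hba-a2, can be shared, so that the split within each pair is uncertain. Between 2 and 6 of the list were called lower with 1 digit left out, the fewest without 0 h replicate 3.

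No list of platelet genes was used, and the genes here were named for the size of their fall or as a marker. Ppbp, the platelet basic protein, had 1717, 274 and 148 at 0 h and 51.1, 11.5 and 7.8 at 6 h (log2 fold change -4.99 ± 1.13, adjusted p = 0.0417). Tubb1, the platelet beta-1 tubulin, had 741, 134 and 90.2 and 5.67, 12.9 and 0 (log2 fold change -5.88 ± 1.19, adjusted p = 0.0309). Clec1b, the platelet receptor CLEC-2, had 220.3, 55.1 and 33.3 and 7.09, 5.75 and 10.9 (log2 fold change -3.61 ± 0.79, adjusted p = 0.0378). In each, 0 h replicate 1 stood far above replicates 2 and 3, although these also exceeded all 6 h digits. Pf4 (platelet factor 4) had 453, 134 and 119 and 62.4, 38.8 and 62.4 and was not called (log2 fold change -2.09 ± 0.54, adjusted p = 0.0599). Clec14a, an endothelial surface protein, was by contrast even at 0 h, with 90.9, 120.4 and 99.99 and 15.6, 12.9 and 21.1 (log2 fold change -2.62 ± 0.33, adjusted p = 0.00631). In the endothelial list none of 12 tested markers was called (median -0.77), and Pecam1, an endothelial junction protein, had 729.8, 351 and 427 and 540.4, 312 and 183 (log2 fold change -0.54 ± 0.41, adjusted p = 0.451).

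Leukocyte markers were called in both directions. Of 21 neutrophil markers 10 had enough counts, and 7 of these were called higher and none lower (median 2.43). The count filter keeps a gene expressed at 1 time alone, so that S100a8 and Trem1, near 0 at 0 h, were tested through their 6 h values. The 7 of 10 and the median thus lean upward and do not describe all 21 markers. Trem1, an activating receptor of neutrophils and monocytes, had 6.89, 0 and 2.44 at 0 h and 115, 124 and 44.5 at 6 h (log2 fold change 5.10 ± 0.87, adjusted p = 0.0195). Clec4d, a myeloid lectin, had 42.7, 20.6 and 16.3 and 261, 173 and 98.3 (log2 fold change 2.77 ± 0.49, adjusted p = 0.0213). The summed level of the 21 markers was 55.5 to 83.8 normalized TPM at 0 h and 315 to 475 at 6 h. S100a8, S100a9 and Lcn2 are also in the alarmin list, and the neutrophil granule and surface genes Ly6g, Ngp, Camp, Ltf and Mmp8 had too few counts to be tested. Ly6g, a defining neutrophil gene, was at 2.49, 0 and 0 and 0, 3.12 and 0 normalized TPM. The part of these cells in the cytokine and alarmin rises was not tested. With 1 digit left out, 2 to 8 neutrophil markers were called, the fewest without 0 h replicate 2 or 3 or 6 h replicate 2. No monocyte and macrophage marker was called higher. Of 16 tested, 1 was called, C1qa, which was lower with 138, 113 and 83.7 and 53.9, 43.2 and 45.3 (log2 fold change -1.23 ± 0.29, adjusted p = 0.0468), and the median was -0.66. C1qa was not called with any 1 digit left out. Lyz2 (lysozyme) had 869, 483 and 443 and 594, 240.2 and 239.6 (log2 fold change -0.74 ± 0.41, adjusted p = 0.303). Of 14 lymphocyte markers 4 had enough counts, and 2 of these were called, both lower. They were the B cell receptor genes Cd79a and Cd79b, Cd79a with 26.2, 27.2 and 51.2 and 0, 0 and 3.12 (log2 fold change -4.55 ± 0.90, adjusted p = 0.029). Cd3d and Cd3g were not called (log2 fold changes -0.98 and -1.49). Cd79a and Cd79b, near 0 at 6 h, were tested through their 0 h values, so that this share leans downward. Neither was called without 0 h replicate 2 or 3 or 6 h replicate 1 or 2. Hdc, the histamine-forming enzyme, was the 1 of 5 mast cell genes called higher, with 42.7, 14.7 and 25.2 and 330.5, 141 and 102 (log2 fold change 2.83 ± 0.56, adjusted p = 0.0284). The other 4, named to complete the count, had log2 fold changes of -1.59 (Cpa3), -1.45 (Kit), -0.23 (Cma1) and 0.01 (Mcpt4), and the list median was -0.23. No marker of skeletal muscle, fat, Schwann cells, bone, cartilage, fibroblasts, hard keratin, melanocytes or sweat gland was called. Gsn (gelsolin), in the fibroblast list, had 12417, 12621 and 14333 and 8825, 8819 and 10003 (log2 fold change -0.51 ± 0.20, adjusted p = 0.156).

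Short sequence motifs were counted in the windows from 250 bases before to 50 bases after the starts of RefSeq genes (GRCm38.p6), on both strands. Of the genes called higher 307 matched the table with 387 windows, of those called lower 171 with 225 windows, and of all tested genes 10117 with 12915 windows. The AP-1 motif TGANTCA (N is any base) was in 12.4% of windows of genes called higher, 8.0% of windows of genes called lower, 5.75% of windows of all tested genes and 7.81% of all 32851 windows in the table. The NF-kB motif GGANTTTCC was in 4.39%, 2.22%, 1.36% and 1.25% of these, and the STAT motif TTCNNNGAA in 12.4%, 6.22%, 6.79% and 8.3%. For the C/EBP motif TTGCNNAA the shares were 12.9%, 6.67%, 8.72% and 10.8%. The hypoxia motif ACGTG was in 89 of the 387 windows of genes called higher, and in 19.6%, 24.3% and 19.6% of the others. All but the hypoxia motif were thus more frequent in the windows of genes called higher than in those of all tested genes. The NF-kB motif was shortened by 1 base, and a rare serum response motif dropped, after a first count with the longer set. These are counts of letters, not of bound sites, and the shares were not tested.

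The 250 bases before the start of 5 genes called higher are shown because they hold matches to different motifs of that search, with matches to the AP-1, NF-kB, STAT and C/EBP motifs in capitals and all sequences 5′ to 3′ on the gene's strand. Il6 (chr5:30012864-30013113, + strand) holds 3 matches, AP-1 249, C/EBP 128 and NF-kB 43 bases before the start. Mmp3 (chr9:7445572-7445821, + strand) holds C/EBP at 148 and AP-1 at 46 bases. Cxcl1 (chr5:90890995-90891244, + strand) holds an NF-kB match at 70 bases, Socs3 (chr11:117969367-117969616, - strand) a STAT match at 154 bases, and Sprr1a (chr3:92485882-92486131, - strand) AP-1 matches at 146 and 116 bases.
Il6: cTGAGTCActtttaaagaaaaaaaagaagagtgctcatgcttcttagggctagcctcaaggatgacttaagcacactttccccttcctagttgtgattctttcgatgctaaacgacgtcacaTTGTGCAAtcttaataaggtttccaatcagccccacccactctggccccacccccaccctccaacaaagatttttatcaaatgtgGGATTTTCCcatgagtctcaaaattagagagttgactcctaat
Mmp3: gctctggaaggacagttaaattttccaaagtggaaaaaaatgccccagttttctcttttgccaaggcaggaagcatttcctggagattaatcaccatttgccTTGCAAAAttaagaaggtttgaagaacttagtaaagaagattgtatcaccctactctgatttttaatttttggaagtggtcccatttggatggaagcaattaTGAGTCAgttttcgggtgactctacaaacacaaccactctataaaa
Cxcl1: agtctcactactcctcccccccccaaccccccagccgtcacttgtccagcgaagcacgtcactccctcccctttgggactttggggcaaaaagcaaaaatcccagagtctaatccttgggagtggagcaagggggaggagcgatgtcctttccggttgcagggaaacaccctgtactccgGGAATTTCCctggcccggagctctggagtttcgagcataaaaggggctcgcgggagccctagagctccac
Socs3: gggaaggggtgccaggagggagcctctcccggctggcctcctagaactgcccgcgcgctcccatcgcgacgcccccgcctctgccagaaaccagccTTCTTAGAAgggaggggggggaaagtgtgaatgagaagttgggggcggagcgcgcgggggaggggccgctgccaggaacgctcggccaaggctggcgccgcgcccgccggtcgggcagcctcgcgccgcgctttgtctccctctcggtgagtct
Sprr1a: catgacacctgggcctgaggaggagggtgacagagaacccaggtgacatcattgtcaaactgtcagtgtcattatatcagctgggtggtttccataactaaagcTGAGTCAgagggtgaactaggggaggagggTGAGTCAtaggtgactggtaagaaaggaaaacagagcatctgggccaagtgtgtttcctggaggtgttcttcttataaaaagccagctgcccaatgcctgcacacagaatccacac

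The neighbouring times placed the 6 h digits within a longer course. Between 3 h and 6 h, 11 of 12291 tested genes were called higher at 6 h (0.0895%) and 2 lower (0.0163%), and 1629 had an unadjusted p under 0.05. The genes higher than at 3 h included Krt17, with a log2 fold change of 2.50 (6 h minus 3 h), and the 2 lower were Fosb and Atf3, with -3.90 and -3.87. The 3 h digits had 1468749 to 5743060 counts, which limits this comparison. No gene was called without 3 h replicate 1 or without 6 h replicate 2 or 3, 1 rise without 3 h replicate 2, and 145 rises and 41 falls without 3 h replicate 3. Between 6 h and 12 h, 8 of 12482 genes were called higher at 12 h (0.0641%) and none lower (0%) by edgeR, with 1424 at an unadjusted p under 0.05, and DESeq2 called 170 and 69. Among the 8 were Slpi and Il1rl1, with log2 fold changes of 1.86 and 2.74 (12 h minus 6 h). Without 6 h replicate 1, 134 rises and 47 falls were called, without 12 h replicate 2, 18 rises, and without any other of these digits none.

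Mean levels showed distinct courses among the genes that were high at 6 h. Ccl20 was at 6.46 ± 6.02 (SD) normalized TPM at 3 h, 37.5 ± 4.39 at 6 h and 6.81 ± 2.33 at 24 h. Fosl1 was at 98.1 ± 44.0 at 3 h and 108 ± 50.1 at 6 h, and down to 33.8 ± 14.6 at 24 h. Krt16 continued upward, with 4591 ± 269 at 6 h, 8888 ± 2935 at 12 h and 16459.9 ± 3625 at 24 h. Of the 425 genes called higher, 121 had their highest mean of all 9 times at 6 h, 139 at 12 h, 65 at 24 h, 70 at 14 days and 15 at 3 h. Over all 13168 tested genes these numbers were 735, 1143, 775, 4795 and 1727. Of the 213 called lower, 82 had their lowest mean at 6 h, 52 at 12 h and 41 at 24 h, against 1180, 1853 and 1486 of all tested genes. These tallies include the 0 h and 6 h digits by which the genes were called. Hbb-bs was at 1313 ± 52.2 at 0 h, 255 ± 131 at 3 h and 125 ± 92.8 at 6 h. Mki67 was at 18.2 ± 4.91 at 6 h, 17.4 ± 4.38 at 24 h and 49.1 ± 2.62 at 3 days.

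**Figure D4:**
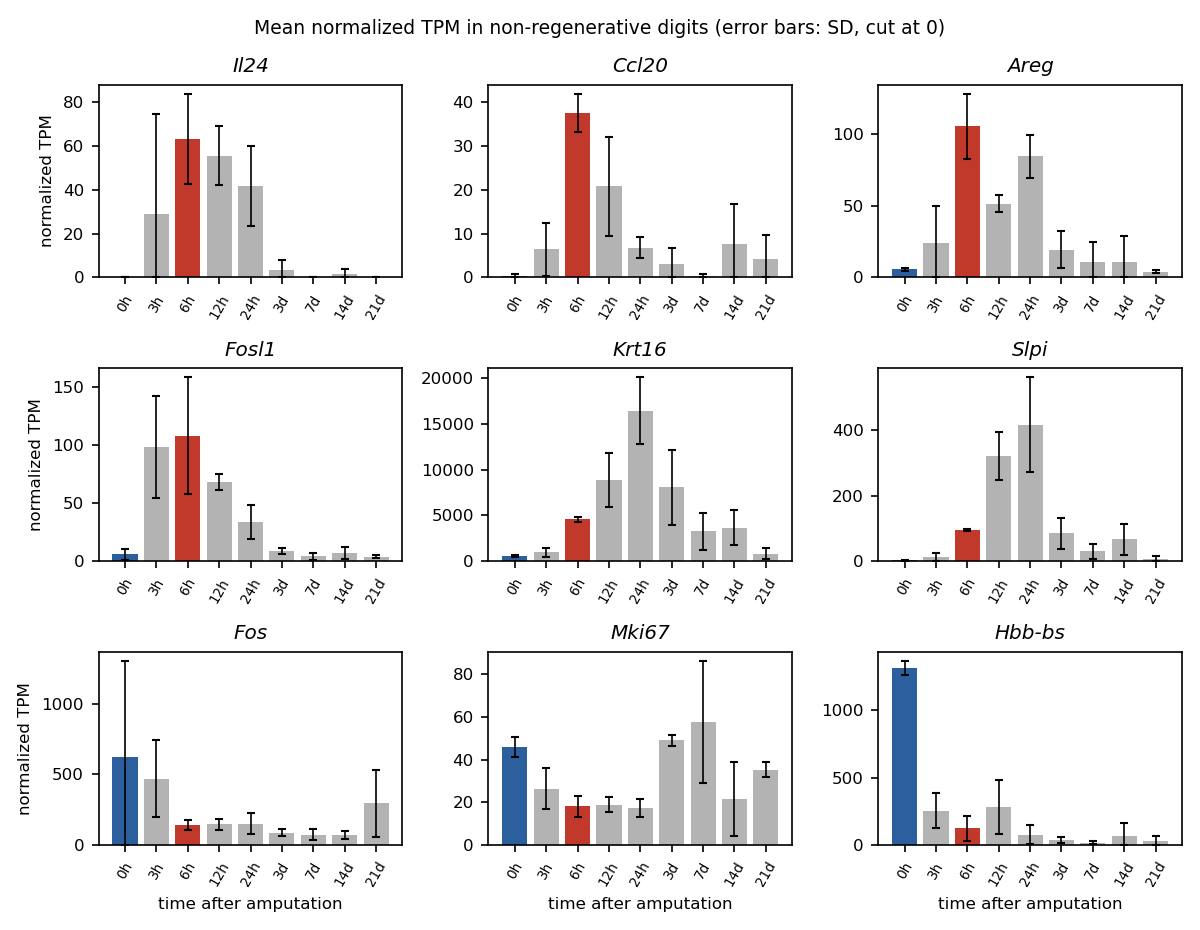
Mean normalized TPM of 9 genes in NR digits at 9 times, with error bars of 1 SD cut at 0 (3 digits per time, 5 at 7 days), 0 h in blue and 6 h in red. Il24, Ccl20, Areg and Fosl1 have their highest mean at 6 h, Krt16 and Slpi at 24 h, and Hbb-bs is highest at 0 h.

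Digits that the 6 h against 0 h test had not used were examined for the same genes. NR digits of other times were set against the 3 intermediate digits at 0 h, which had 52%, 53% and 55% of P3 removed. At 12 h, 379 of the 425 genes called higher (89.2%) exceeded all intermediate 0 h digits in every digit, against 18.2% of all tested genes, and the median log2 ratio was 1.44 against -0.07. Of the 213 called lower, 147 (69.0%) were below all of them, against 20.4% of all tested genes. At 24 h the shares were 80.0% and 68.5%, against 16.2% and 19.8%. At 3 h they were 24.9% and 24.4%, against 7.27% and 10.7%. At 3 days 35.8% of the genes called higher were above and 30.5% of those called lower below, against 8.2% and 9.14%. At 21 days the shares were 6.35% and 14.1%, against 5.97% and 6.25%, and the median log2 ratio of the genes called higher was -0.01. At 7 days, with 5 digits, the shares were 11.1% of the genes called higher and 34 of the 213 called lower, against 3.16% and 4.81%. At 14 days they were 20.9% and 23.5%, against 9.54% and 6.68%, and the median log2 ratio over all tested genes was itself 0.19, against 0.76 for the genes called higher. Within intermediate digits alone, 170 of the 425 (40%) were higher in all 3 digits at 24 h than in all 3 at 0 h, against 9.53% of all tested genes, and 80 of the 213 (37.6%) were lower, against 11.6%. These comparisons share the intermediate 0 h digits.

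**Figure D5:**
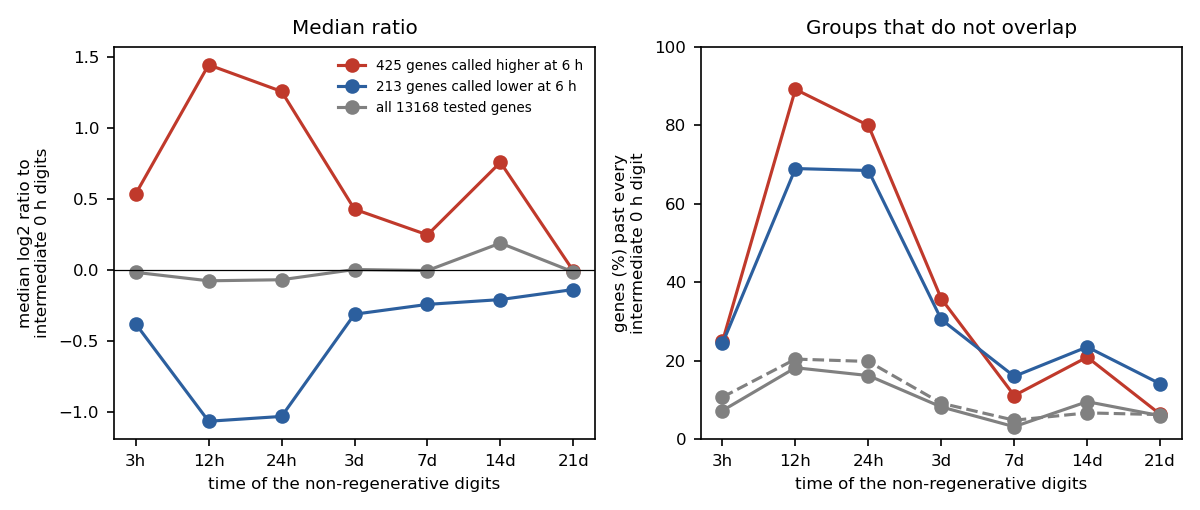
NR digits at 7 times against the 3 intermediate digits at 0 h: median log2 ratio of normalized TPM plus 1 (left) and percent of genes whose digits all lie beyond those 3 digits (right), for the 425 genes called higher (red, upward), the 213 called lower (blue, downward) and all tested genes (grey, upward solid, downward dashed). Both sets stand furthest from 0 at 12 h and 24 h, and the genes called higher are back at -0.01 by 21 days.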

How the data were processed

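RNA was measured in 3 NR digits at 0 h and 3 at 6 h. Per the study's methods, poly(A)+ RNA was made into LM-Seq libraries and read as 65-base single ends, which the authors aligned with Bowtie to mouse genes of GRCm38 (mm10) and quantified with RSEM 1.2.3. The authors deposited expected counts per gene without normalization. The second deposited table holds a signal called normalized TPM here, in which the authors rescaled TPM of each library with median-by-ratio factors. In it and the counts, 26 gene names that had turned into dates were restored. RSEM shares reads between similar genes, which makes the split within gene families uncertain, and 296 called genes overlap another annotated gene, whose reads cannot always be told apart.

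Expected counts were rounded and tested with edgeR 4.0.16 in R 4.3.3 (filterByExpr, TMM, glmQLFit, glmQLFTest) on the 6 digits alone. The filter keeps a gene with enough counts at 1 time alone. Shares and medians over the tested members of a list therefore lean towards members that are high at that time. Calls needed an adjusted p (Benjamini-Hochberg) under 0.05 and mean normalized counts, each plus 1, that differed over 2-fold. EBSeq, which the study used with these thresholds, was not used here. In simulated counts with 200 changed genes among 13168, the test recovered 173 at 4-fold with 8 false calls and 198 at 8-fold with 9 false calls. The simulated digits varied independently, without the split by date seen at 0 h, and the changed genes were drawn from those with more counts. These rates therefore do not describe the calls in the real digits. Totals of 4747702 to 10918597 counts set the depth, and a count of 0 allows up to 3 counts, for counting error only. No 2 replicates were alike within counting error (chi-square per degree of freedom 10.7 to 86.1).

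The members and gene lists were chosen with earlier results of these data known. Named genes are the 15 largest called rises and falls with separate groups and a mean normalized count of at least 100 at the higher time, up to 5 called members of each list with the smallest adjusted p (or the most abundant ones where fewer than 2 were called), and textbook marker genes. Not all of these are described, and some are not reported here. Ratios between digits used normalized TPM plus 1. Alternatives used DESeq2 1.42.0 and limma 3.58.1, other scalings and filters, label dates or amputation level as a term, and left-out digits. The macrophage libraries entered no comparison.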

Additional observations from a re-analysis of the deposited data

How the results depend on the processing

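The 425 rises and 213 falls at 6 h became 592 and 521 with DESeq2 and 433 and 215 with RLE size factors. They became 103 and 13 with all 41 digits in 1 fit, and 100 and 18 with the label period added to it. Limma on normalized TPM gave 241 and 93 with 1 added, 241 and 88 with 0.1 added, and 156 and 37 with no filter. The label period as a term gave 489 and 395, the intermediate 0 h digits added to the controls 594 and 603, and the digits labelled above 67% alone 199 and 60, in which the lone 0 h digit is assumed to vary like the 6 h digits. Leaving out 1 digit gave 95 to 442 rises and 13 to 163 falls, with fewer samples in each fit. The rises from 3 h to 6 h were 256 with DESeq2, 28 with all digits in 1 fit and 38 with label period, and the falls 111, 1 and 1, with 0 to 145 and 0 to 41 when 1 digit was left out. From 6 h to 12 h, DESeq2 called 170 rises and 69 falls, the fit of all digits 0 rises and with label period 1 rise, and left-out digits gave 0 to 134 and 0 to 47. For other counts that moved, the cause was not tested. The 107 called genes followed through the 20 alternatives kept their direction in all of them. Il24, Il19 and some other named genes were not among the 107. For genes whose groups do not overlap this was largely fixed in advance. Of the genes not called, Mcpt4 (0.01) had log2 fold changes of -0.0072 with all digits and label period in 1 fit, -0.11 with upper-quartile scaling, -0.024, -0.017 and -0.024 in the 3 limma fits, -0.037 with label period, -0.78 with intermediate controls added, -0.36 above 67% and -0.28 to 0.21 with 1 digit left out. Cma1 (-0.23) had 0.051 with amputation level as a term, 0.22 above 67% and -0.60 to 0.60 with 1 digit left out. No paired analysis was possible because the labels of the digits carry no replicate numbers shared between times. Depth limits the genes with few counts: 8786 of 21954 were not tested.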

Other observations

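Some gene groups outside the comparisons above were called in single members. Among 19 circadian clock genes 1 was called, Cry1, a repressor of the clock, which had 59.2, 163 and 137 normalized counts at 0 h and 437, 332 and 394 at 6 h (log2 fold change 1.68 ± 0.35, adjusted p = 0.0329), while the list median was -0.34. Over all tested genes 4.85% were called, so that 1 of 19 is near that share. Digits of the 2 times were collected at different hours after surgery, and the hour of day of each is not given. Among 17 glucocorticoid-responsive genes 4 were called higher and none lower (median 0.01), including Fkbp5, a chaperone of the glucocorticoid receptor, with 167, 216 and 248 and 484, 499 and 409.7 (log2 fold change 1.14 ± 0.20, adjusted p = 0.0209), and Mt2, a metal-binding protein, with 1595, 849 and 581 and 4954, 3329 and 3476 (log2 fold change 1.96 ± 0.38, adjusted p = 0.0271). Of the 13 members that were not called, 5 had a positive log2 fold change. Lcn2, Mt2 and Angptl4, among the 4 called, are also in other lists used here. None of the 4 was called without 0 h replicate 2 or 3 or 6 h replicate 2.

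Of 24 antioxidant and metallothionein genes 3 were called higher and none lower (median 0.31), among them Srxn1 (sulfiredoxin) with 380.1, 446 and 428 and 1306, 738 and 914 (log2 fold change 1.24 ± 0.23, adjusted p = 0.0231), and 1 was called without 0 h replicate 2 or 3. Of 26 heat shock and unfolded protein response genes 1 was called, near the 4.85% called over all tested genes. It was Sesn2, a stress sensor, with 49.6, 70.5 and 69.9 and 155, 175 and 120.2 (log2 fold change 1.23 ± 0.27, adjusted p = 0.0364). Sesn2 was not called with any 1 digit left out. Trpv3, a warmth-sensing channel of keratinocytes, had 302, 617 and 501 and 1271, 1149 and 1418 (log2 fold change 1.43 ± 0.26, adjusted p = 0.0232). Elovl1, an enzyme that lengthens fatty acids of the barrier, had 469.6, 514 and 369.9 and 1196, 1108 and 828 (log2 fold change 1.21 ± 0.20, adjusted p = 0.0187). None of 24 epidermal transcription factor genes was called (median 0.19). Among 7 tested dendritic and Langerhans cell markers 1 was called, Epcam, with 605, 378 and 615 and 1279, 1144 and 1267 (log2 fold change 1.21 ± 0.21, adjusted p = 0.0213). Over all tested genes 4.85% were called, and Epcam was no longer called in 5 of the 6 fits with 1 digit left out. The other 6 had log2 fold changes of 0.80 (Cd207), 0.83 (Itgax), 0.35 (H2-Aa), 0.55 (H2-Ab1), 0.24 (Cd74) and -0.18 (H2-Eb1).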
